A study of Rattus norvegicus with 30 samples.

Results

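The genes of hepatic glucose and glycogen metabolism described here were 10 of the 14217 genes measured: Slc2a2, Gckr, Pfkfb1, Gys2, Pygl, Slc37a4, Fbp1, Pck1, Pc and Ppargc1a. They were taken by gene symbol from the platform annotation, each through its brightest probe set on average, and all 10 were found. Expression was measured on Affymetrix rat arrays in cultured hepatocytes from male Sprague Dawley rats that received beta-naphthoflavone (BNF), a synthetic flavonoid that activates the aryl hydrocarbon receptor (AhR). The 6 groups were 48 h of vehicle (1% dimethyl sulfoxide, DMSO), 1 µM BNF or 100 µM BNF, and 24 h of vehicle, 1 µM BNF or 100 µM BNF, with 5 arrays each. All groups shared the purchased frozen cells, plating on collagen under Matrigel and dosing on day 3 of culture. Each array came from its own culture well, the labels do not tie wells to animals, and the age of the animals is not given in the sources used here, so p-values measure the spread between wells. Replicate numbers serve as names of arrays.

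The liver takes up glucose after a meal, stores it as glycogen, and releases it again during fasting from glycogen or by making it from lactate, glycerol and amino acids. Glucose enters and leaves through the carrier GLUT2, and the enzymes of breakdown and synthesis oppose each other at a few steps that hormones control. Insulin favours storage and breakdown, whereas glucagon and glucocorticoids favour output, in part through the coactivator encoded by Ppargc1a. AhR ligands have been linked to lower expression of gluconeogenic genes in rodent liver.

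Of the 10 genes, 9 had a single probe set of 1 gene symbol and Ppargc1a had 3. Start windows from RefSeq (build GRCr8) were used for 9 of the 10 genes, and none was used here for Pc. The windows ran from 250 bases before the annotated start to 50 after it. An annotated start need not lie at the end of the gene. Those of Pfkfb1, Fbp1 and Ppargc1a lie inside the annotated gene (chrX:22936038-22989691, chr17:2212941-2235749 and chr14:63073505-63729215). So do those of Slc2a2 (chr2:113537884-113568422) and Slc37a4 (chr8:53619952-53626110), whose windows are not shown. Which start was used in these cells was not tested, so motifs found or missing are those of these windows. The stretch of 250 bases before the start is shown for Gckr and Pfkfb1, the genes with the lowest log2 fold changes at 100 µM. It is also shown for Fbp1, a target step of the Pfkfb1 product, and for Pck1 and Ppargc1a, genes known to respond to cyclic AMP. Capitals mark the motifs searched on both strands: GCGTG, the core that AhR binds, TGACG, a core of the cyclic AMP response element, GTTAAT, a core of the HNF1 site, and CACGTG and TATAAA. The stretches lie at chr6:30795628-30795877 (minus strand) for Gckr, at chrX:22941926-22942175 (plus) for Pfkfb1, at chr17:2213457-2213706 (plus) for Fbp1, at chr3:182348322-182348571 (plus) for Pck1 and at chr14:63634058-63634307 (plus) for Ppargc1a.
Gckr: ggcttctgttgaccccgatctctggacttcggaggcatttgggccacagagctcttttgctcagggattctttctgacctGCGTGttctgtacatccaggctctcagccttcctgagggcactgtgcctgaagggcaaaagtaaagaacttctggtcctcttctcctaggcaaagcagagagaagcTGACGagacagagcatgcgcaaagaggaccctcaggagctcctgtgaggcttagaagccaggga
Pfkfb1: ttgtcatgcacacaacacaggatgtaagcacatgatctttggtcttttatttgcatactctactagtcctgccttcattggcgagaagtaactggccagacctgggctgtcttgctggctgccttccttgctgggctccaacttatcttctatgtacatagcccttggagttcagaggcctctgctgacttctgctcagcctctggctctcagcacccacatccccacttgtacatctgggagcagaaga
Fbp1: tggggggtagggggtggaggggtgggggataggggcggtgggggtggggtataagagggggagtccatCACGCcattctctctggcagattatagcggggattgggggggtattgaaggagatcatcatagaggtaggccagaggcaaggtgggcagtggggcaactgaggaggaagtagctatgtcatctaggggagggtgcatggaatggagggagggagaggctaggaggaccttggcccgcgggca
Pck1: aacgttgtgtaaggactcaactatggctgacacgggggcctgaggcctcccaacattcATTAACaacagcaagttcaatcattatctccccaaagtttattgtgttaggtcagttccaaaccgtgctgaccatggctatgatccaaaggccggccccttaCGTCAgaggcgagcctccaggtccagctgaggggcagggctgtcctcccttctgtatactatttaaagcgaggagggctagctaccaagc
Ppargc1a: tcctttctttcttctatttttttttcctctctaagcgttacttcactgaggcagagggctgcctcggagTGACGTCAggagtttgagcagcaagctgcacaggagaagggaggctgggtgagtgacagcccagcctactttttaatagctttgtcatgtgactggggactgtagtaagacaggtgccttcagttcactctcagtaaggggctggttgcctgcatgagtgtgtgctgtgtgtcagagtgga
A gene was counted if any of its windows held the motif, and Slc37a4 had more than 1 window. The shares set beside these counts are of windows, not of genes. The GCGTG core lay in windows of 5 of the 9 genes (Fbp1, Gckr, Pygl, Slc2a2 and Slc37a4), against 29.7% of the 33469 windows of the same length. In Gckr it began 170 bases before the start, and in Fbp1 182 bases before it on the opposite strand. TGACG lay in windows of 4 genes (Gckr, Pck1, Ppargc1a and Slc37a4), against 21.2% of all windows, and began 90 bases before the start of Pck1 on the opposite strand. GTTAAT was found in Pck1 alone among the 9 genes, against 7.5% of all windows. Neither CACGTG nor TATAAA was found in any of the 9 genes, against 6.4% and 14.2% of all windows. A match is a description of these letters and no measurement of binding.

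Median signals of the arrays ran from 337.8 to 429.1. After 48 h they were 369.6 to 389.7 in vehicle, 381.2 to 429.1 at 1 µM and 337.8 to 403.5 at 100 µM. After 24 h they were 362.5 to 400.3 in vehicle, 381.3 to 424.9 at 1 µM and 365.5 to 427.8 at 100 µM. Some calls of small changes were lost with each array centred on its median, as given below. For the Gapdh control probes, 3′ minus 5′ signal, a measure of RNA quality, was 0.09 to 0.21 log2 units over all 30 arrays. Cyp1a1, the classical AhR target, rose in every comparison with vehicle (log2 fold change 2.5 at 100 µM and 1.32 at 1 µM after 48 h, 2.36 at 100 µM and 1.94 at 1 µM after 24 h; limma, adjusted p from 5.03e-11 to 0.000365), which checks the treatment labels. Its 1 µM call at 48 h was lost when only those groups were fitted (adjusted p = 0.0529). Of 12 hepatocyte markers 11 were measured, at a median percentile of 99.5 of all genes. At 100 µM and 48 h, 7 of the 11 (Apob, Serpina1, Ambp, Fgb, Cps1, Ass1 and Tat; 63.6%) were called lower, against 8.62% of all genes. The summed signal of the 11 markers at 100 µM and 48 h was 385000 to 472000, against 499000 to 593000 in vehicle. Summed Kupffer cell markers (8 measured) were also lower there, at 5650 to 7010 against 7640 to 9060 in vehicle. So were summed cholangiocyte markers (5 measured), at 9070 to 9790 against 11400 to 13100. Called lower were 1 Kupffer cell marker (Lyz2, 12.5%) and 1 cholangiocyte marker (Epcam, 20%), against 8.62% of all genes, and 0 were called higher. The median log2 fold change was -0.25 for the Kupffer cell list and 0.42 for the cholangiocyte list. The cholangiocyte sum therefore does not describe most of its markers. The sums of stellate cell (10 measured), endothelial cell (7) and lymphocyte (7) markers overlapped between 100 µM and vehicle at 48 h. Of these, 1 stellate cell marker (Rgs5, 10%) and 1 endothelial cell marker (Stab2, 14.3%) were called lower, and 0 were called higher. At 24 h the sums of all 6 lists overlapped between 100 µM and vehicle, with hepatocyte sums of 499000 to 638000 at 100 µM and 571000 to 643000 in vehicle. Called lower there were 3 of the 11 hepatocyte markers (Apob, Cps1 and Tat; 27.3%) and 2 of the 10 stellate cell markers (Lrat and Rgs5; 20%), against 10.4% of all genes. In both lists 0 were called higher. No marker was at 0 on any array.

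At 100 µM most of the 10 genes were lower than in vehicle, at both times. The 10 genes were chosen with earlier results of these data known. Counts set against all genes therefore describe these 10 and are no test of the pathway. A gene was called at an adjusted p under 0.05 in one limma fit of log2 signals over all 30 arrays, with Benjamini-Hochberg adjustment over the 14217 genes. After 48 h, 8 of the 10 genes were called lower at 100 µM, against 8.62% of all genes, and the median log2 fold change was -0.85 for the 10 genes and 0.02 for all genes. After 24 h, 9 of the 10 were called lower at 100 µM, against 10.4% of all genes, with medians of -1.09 for the 10 genes and 0.04 for all genes. At 1 µM and 48 h, 3 of the 10 were called lower, against 0.521% of all genes, with medians of -0.18 and 0.02. At 1 µM and 24 h, 6 of the 10 were called lower, against 2.4% of all genes, with medians of -0.46 and 0.03. None of the 10 was called higher, against 8.79% of all genes at 100 µM and 0.288% at 1 µM after 48 h, and 10.7% at 100 µM and 1.91% at 1 µM after 24 h. Changes of at least 2-fold were found for 5 genes at 100 µM and 48 h (of 202 genes in all that were called and at least 2-fold lower), for 5 at 100 µM and 24 h (of 182), and for none at 1 µM at either time.

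Called lower at 100 µM at both times, in comparisons with separate vehicle arrays, were 7 genes (Gckr, Pfkfb1, Slc2a2, Gys2, Slc37a4, Fbp1 and Pck1), against 6.11% of all genes. Of the other genes, Ppargc1a was called lower after 48 h and Pygl and Pc after 24 h. Signals of the 100 µM and vehicle arrays did not overlap, with all 100 µM arrays lower, for 6 genes after 48 h (6.68% of all genes) and for 9 genes after 24 h (7.92% of all genes). At 1 µM this held for none of the 10 genes after 48 h (1.07% of all genes) and for 6 after 24 h (2.85% of all genes). In bulk RNA, fewer hepatocytes and less of these transcripts per cell cannot be told apart. The part of the lower hepatocyte markers at 100 µM (7 of 11 called lower after 48 h, with a median log2 fold change of -0.29, and 3 of 11 after 24 h, with a median of -0.13) in these changes was not tested.

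**Figure D1:**
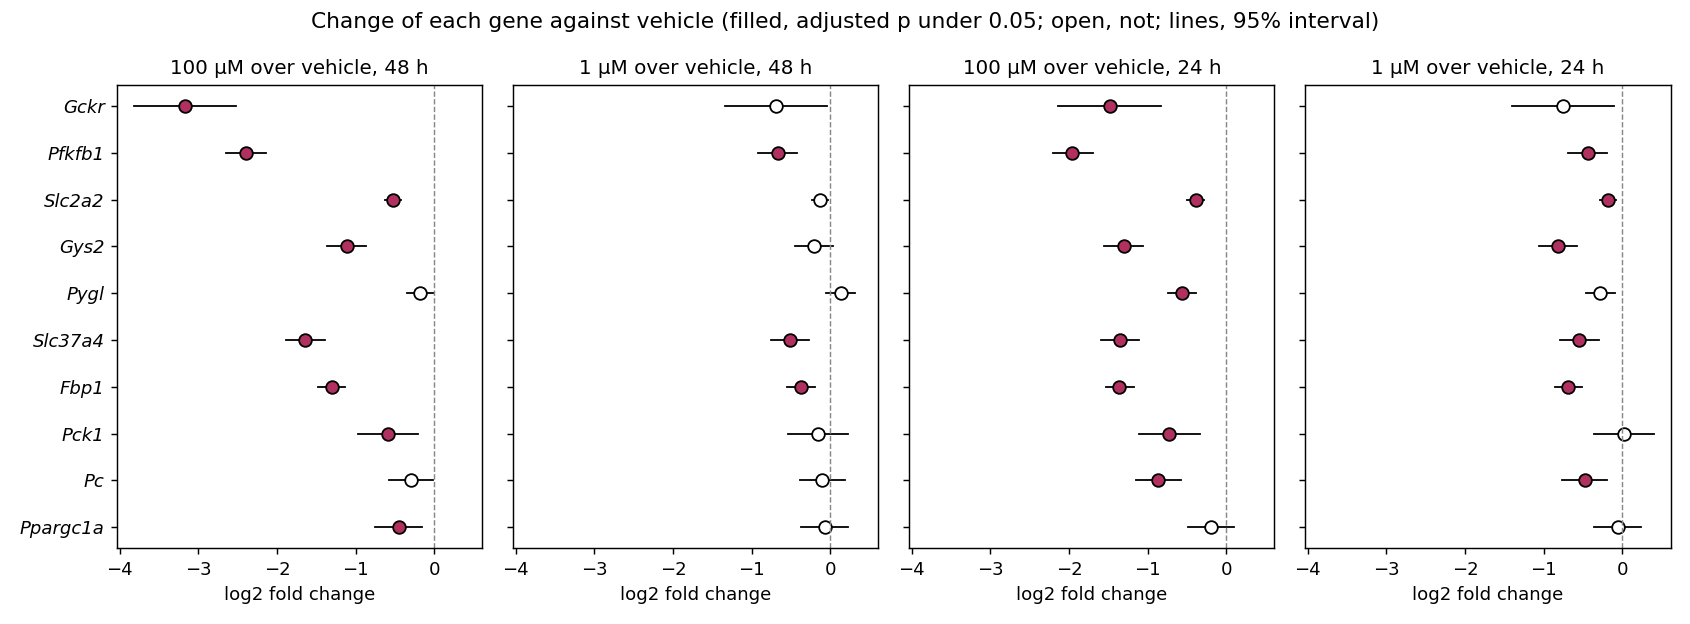
Log2 fold change against vehicle (horizontal axis) of each of the 10 genes, in panels for 100 µM and 1 µM at 48 h and at 24 h. Points are estimates of the fit with their 95% intervals, and filled points passed an adjusted p of 0.05. At 100 µM all points lie below 0, from -3.17 to -0.18 at 48 h and from -1.96 to -0.19 at 24 h.

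**Figure D2:**
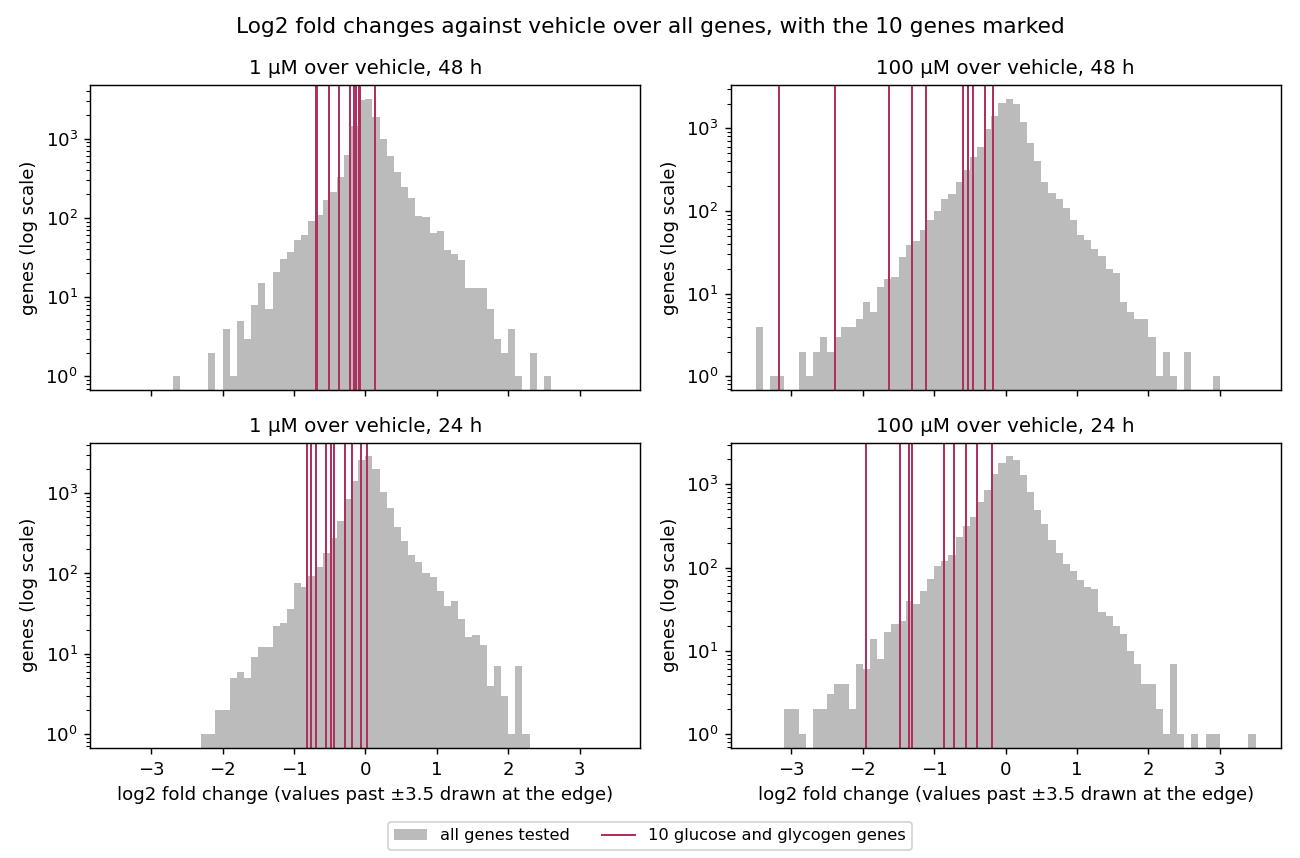
Histograms of the log2 fold changes against vehicle of all 14217 genes (grey, number of genes on a log scale) with the 10 glucose and glycogen genes as red lines, at 1 µM (left) and 100 µM (right) after 48 h (top) and 24 h (bottom). The medians of the 10 genes were -0.85 and -1.09 at 100 µM after 48 and 24 h, and those of all genes 0.02 and 0.04.

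Genes of glucose entry and of the first steps of its use held both the largest and some of the smallest changes. Gckr encodes the glucokinase regulatory protein, which binds glucokinase and holds it inactive in the nucleus when glucose is scarce. After 48 h the Gckr signal was 1790.6, 1136.9, 1819, 1738.3 and 2534.2 in vehicle, 904.6, 1360, 1163.8, 1028.4 and 1006.5 at 1 µM, and 134.2, 418.6, 57.1, 437.6 and 195.6 at 100 µM. After 24 h it was 1979.7, 2755.1, 1932.2, 2454.9 and 2427.9 in vehicle, 1518.9, 1526.8, 1319.6, 1215.1 and 1216.8 at 1 µM, and 832.9, 1000.7, 872.6, 741.6 and 678.7 at 100 µM. All 100 µM arrays lay below all vehicle and all 1 µM arrays of their time, and at 24 h the 1 µM arrays lay below the vehicle arrays as well. Gckr fell 9.01-fold at 100 µM after 48 h (log2 fold change -3.17, SE 0.32, adjusted p = 5.44e-09, limma) and 2.8-fold after 24 h (-1.48, SE 0.32, adjusted p = 0.000747). The spread among the 100 µM arrays at 48 h was wide, 248.6 ± 171.2 (SD, n = 5). On the log2 scale their SD was 1.22, against 0.16 to 0.41 in the other groups. The fit shares 1 spread per gene over all groups, so the SE of 0.32 is not that of the compared groups alone. The signals of 57.1, 134.2 and 195.6 lay below the median signals of the 100 µM arrays at 48 h (337.8 to 403.5), so the size of the fall rests on low values. With 1 array left out the log2 fold change at 100 µM and 48 h was -3.47 to -2.73 (adjusted p up to 5.59e-08, limma). Under the other settings it was -3.17 to -2.81 (adjusted p up to 0.000347). At 1 µM the log2 fold change was -0.69 (adjusted p = 0.418) after 48 h and -0.76 (adjusted p = 0.196) after 24 h, neither of them called. When only the 24 h groups of 1 µM and vehicle were fitted, Gckr was called lower (adjusted p = 0.00222).

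Pfkfb1 encodes the liver form of the bifunctional enzyme that makes and removes fructose 2,6-bisphosphate, the signal that stimulates phosphofructokinase and inhibits fructose-1,6-bisphosphatase. Its signal after 48 h was 4032.8, 3293.6, 4787.8, 4950.3 and 4958.4 in vehicle, 2117.4, 3354.3, 2887.3, 2845.2 and 2599.3 at 1 µM, and 682.6, 1007.1, 753.3, 854.6 and 876.7 at 100 µM. The 24 h signals of Pfkfb1 were 5795.5, 6247.6, 5835, 5708.1 and 5924.7 in vehicle, 4961.1, 4906.4, 4500.1, 3494.8 and 4077.2 at 1 µM, and 1915.4, 1590.8, 1338.7, 1414 and 1413.6 at 100 µM. The 3 doses formed separate ranges at 24 h, while at 48 h the highest 1 µM array lay above the lowest vehicle array. Pfkfb1 fell 5.26-fold at 100 µM after 48 h (log2 fold change -2.39, SE 0.12, adjusted p = 1.77e-15) and 3.88-fold after 24 h (-1.96, SE 0.12, adjusted p = 3.66e-13). At 1 µM it fell 1.59-fold after 48 h (adjusted p = 0.00315) and 1.36-fold after 24 h (adjusted p = 0.0356). The 48 h call at 1 µM was lost when only those groups were fitted (adjusted p = 0.0543). The 24 h call at 1 µM was lost without any 1 of 1 µM replicates 3, 4 and 5 or vehicle replicates 1, 2, 4 and 5 (adjusted p between 0.0561 and 0.128).

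Slc2a2 encodes GLUT2, the carrier through which glucose crosses the hepatocyte membrane in both directions. After 48 h its signal was 38223.1 ± 2123.3 in vehicle, 34843.9 ± 599 at 1 µM and 26596.5 ± 2347.3 at 100 µM, and after 24 h it was 40412.8 ± 1454.4 in vehicle, 35576.1 ± 1890 at 1 µM and 30751.3 ± 1393.7 at 100 µM (SD, n = 5 each). The change was small but large against the spread between wells. Slc2a2 fell 1.44-fold at 100 µM after 48 h (log2 fold change -0.53, SE 0.05, adjusted p = 1.94e-09) and 1.31-fold after 24 h (-0.39, SE 0.05, adjusted p = 5.04e-07). At 1 µM the log2 fold change was -0.13 after 48 h (adjusted p = 0.265) and -0.18 after 24 h (adjusted p = 0.0303). The 24 h call at 1 µM was lost with each array centred on its median (adjusted p = 0.0874) and without any 1 of 1 µM replicates 1, 2 and 3 or vehicle replicates 3, 4 and 5 (adjusted p between 0.0525 and 0.0968).

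**Figure D3:**
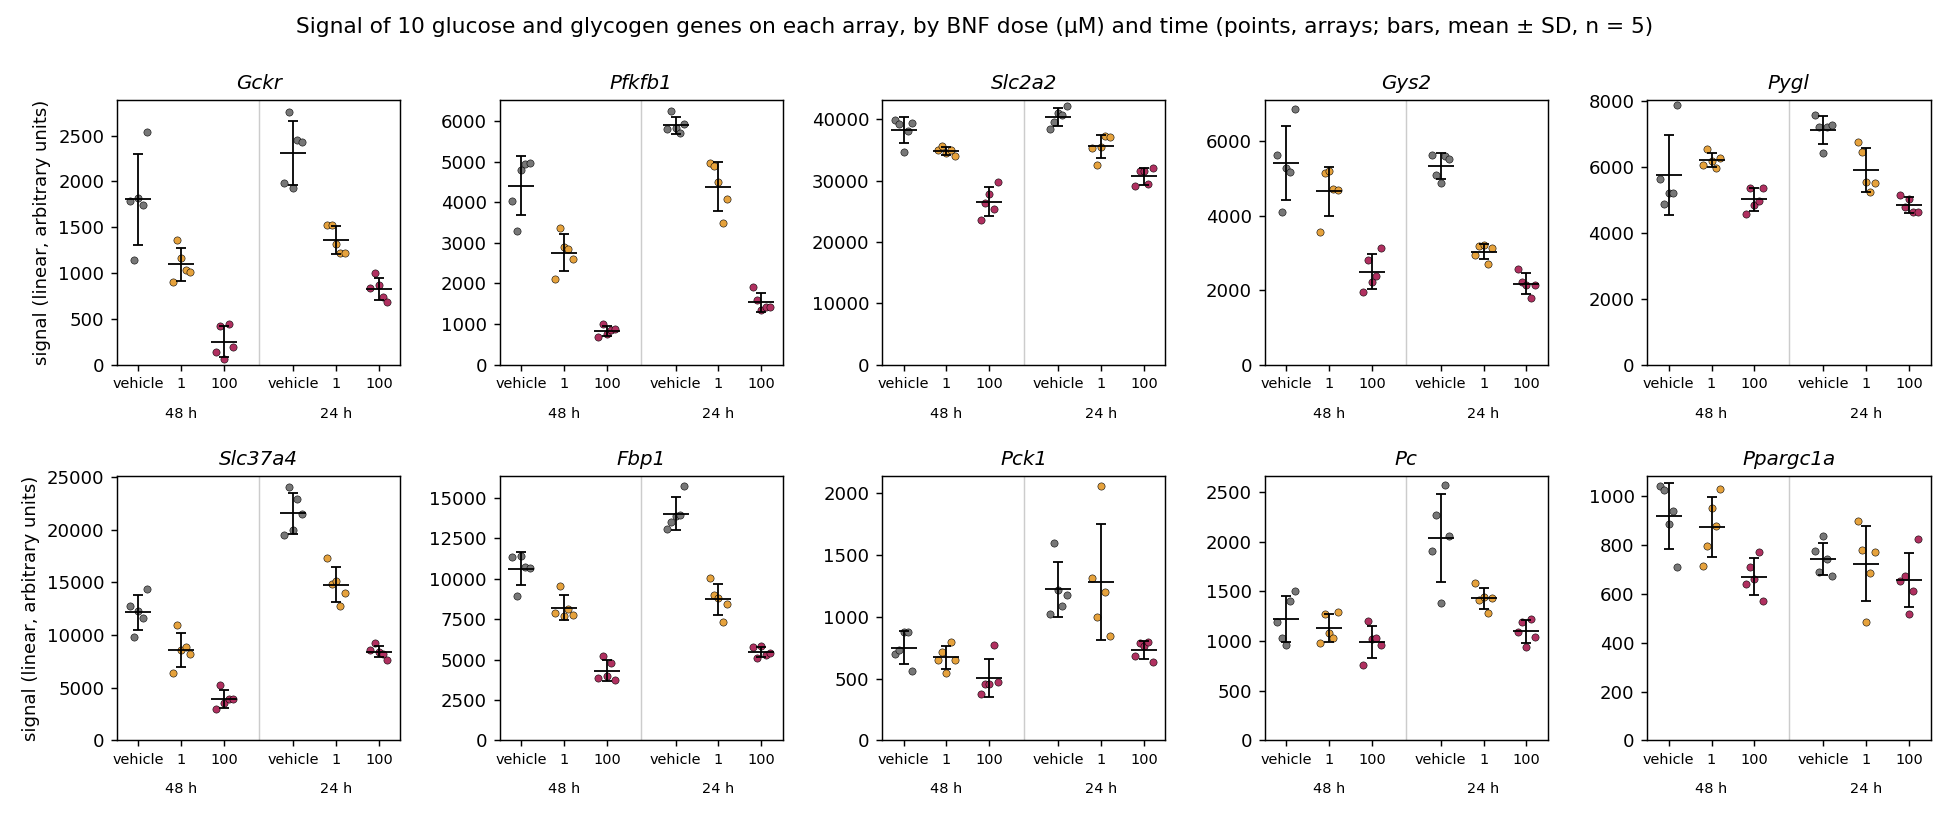
Signal (linear, arbitrary units) of each of the 10 genes on each of the 30 arrays, by BNF dose in µM and time, with 48 h on the left and 24 h on the right of each panel. Points are arrays and bars the mean ± SD of 5. In Gckr, Pfkfb1, Slc2a2, Gys2, Slc37a4 and Fbp1 the 100 µM arrays lie below the vehicle arrays at both times, and in Ppargc1a they overlap at both.

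Of the opposing pair of glycogen enzymes, the synthase fell at 100 µM at both times and the phosphorylase was called lower after 24 h. Gys2 encodes liver glycogen synthase, which extends the glycogen chain. Its signals after 48 h were 5629, 4099.8, 5282.7, 5166.3 and 6858 in vehicle, 3550.1, 5140.6, 5190.8, 4709.9 and 4697.5 at 1 µM, and 1951.7, 2805.2, 2228.2, 2381.9 and 3127.5 at 100 µM. The 24 h signals of Gys2 were 5634.6, 5084.1, 4866.9, 5608.7 and 5527.8 in vehicle, 2944.3, 3179.7, 3206, 2707.2 and 3123.3 at 1 µM, and 2580, 2224.7, 2131.2, 1796.6 and 2139.4 at 100 µM. At 24 h both doses lay wholly below vehicle, whereas at 48 h only the 100 µM arrays did. Gys2 fell 2.16-fold at 100 µM after 48 h (log2 fold change -1.11, SE 0.12, adjusted p = 1.66e-08) and 2.47-fold after 24 h (-1.3, SE 0.12, adjusted p = 8.52e-10). At 1 µM its log2 fold change was -0.21 (adjusted p = 0.531) after 48 h, and after 24 h it fell 1.76-fold (-0.82, adjusted p = 5.65e-05). The difference of the 1 µM effect between the times was 0.61 (SE 0.17) and did not pass the adjustment over all genes (adjusted p = 0.179).

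Pygl encodes liver glycogen phosphorylase, which releases glucose 1-phosphate from glycogen. After 48 h its signal was 5761.9 ± 1211.2 in vehicle, 6217 ± 221.7 at 1 µM and 5023.5 ± 343.9 at 100 µM, and after 24 h it was 7141.2 ± 425.3 in vehicle, 5904.2 ± 672 at 1 µM and 4845.7 ± 239 at 100 µM (SD, n = 5 each). The vehicle spread at 48 h came mostly from replicate 5, at 7876.4, while the other 4 vehicle arrays lay between 4880.9 and 5625.4. Pygl fell 1.47-fold at 100 µM after 24 h (log2 fold change -0.56, SE 0.09, adjusted p = 1.06e-05), and at 48 h its log2 fold change was -0.18 (SE 0.09, adjusted p = 0.176). At 1 µM the log2 fold change was 0.13 (adjusted p = 0.596) after 48 h and -0.28 (adjusted p = 0.0609) after 24 h. The 24 h value at 1 µM was called with array weights (adjusted p = 0.0316), with each array centred on its median (0.0464), with genes below the median signal left out (0.0329), and without 1 µM replicate 1 (0.0278) or 2 (0.0483) or vehicle replicate 3 (0.0387).

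Among genes of glucose output, Slc37a4, Fbp1 and Pck1 fell at 100 µM at both times and Pc after 24 h. Slc37a4 encodes the carrier that brings glucose 6-phosphate into the endoplasmic reticulum, where it is split to free glucose. Its 48 h signals were 12790.5, 9812.3, 12255, 11665.8 and 14395.5 in vehicle, 6370.9, 10952, 8603.1, 8845.1 and 8189.8 at 1 µM, and 3021.5, 5307.2, 3603.9, 3898.5 and 3948 at 100 µM. The 24 h signals of Slc37a4 were 19480.2, 24073.9, 19952.6, 22912.7 and 21504.2 in vehicle, 17301.4, 14859.8, 15115.8, 12730.3 and 14008.1 at 1 µM, and 8609, 9211.8, 8430, 8251.2 and 7678.6 at 100 µM. At 24 h the doses formed 3 separate ranges, and at 48 h 1 µM replicate 2 lay above the lowest vehicle array. Slc37a4 fell 3.11-fold at 100 µM after 48 h (log2 fold change -1.64, SE 0.12, adjusted p = 7.06e-12) and 2.55-fold after 24 h (-1.35, SE 0.12, adjusted p = 5.25e-10). At 1 µM it fell 1.43-fold after 48 h (adjusted p = 0.0308) and 1.46-fold after 24 h (adjusted p = 0.00576).

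Fbp1 encodes fructose-1,6-bisphosphatase, the gluconeogenic enzyme that opposes phosphofructokinase. After 48 h its signal was 11355.5, 8926.3, 11428.1, 10721.7 and 10667.8 in vehicle, 7876.5, 9556.2, 7724.6, 8149.2 and 7735.4 at 1 µM, and 3855.1, 5224.7, 3973.8, 4775.1 and 3769.4 at 100 µM. Its 24 h signals were 13102, 13481.6, 13849.2, 13945.9 and 15761.8 in vehicle, 10019.6, 9012.5, 8791.6, 7355.4 and 8410.3 at 1 µM, and 5773, 5093.3, 5829.5, 5313.7 and 5381 at 100 µM. Again the doses formed separate ranges at 24 h, and at 48 h only 1 µM replicate 2 reached the vehicle range. Fbp1 fell 2.47-fold at 100 µM after 48 h (log2 fold change -1.3, SE 0.09, adjusted p = 5.08e-13) and 2.56-fold after 24 h (-1.36, SE 0.09, adjusted p = 3.89e-13). At 1 µM it fell 1.29-fold after 48 h (adjusted p = 0.0281) and 1.61-fold after 24 h (adjusted p = 5.5e-06). The 48 h calls of both Slc37a4 and Fbp1 at 1 µM were lost without any 1 of 1 µM replicates 1, 3, 4 and 5 or vehicle replicates 1, 3, 4 and 5, with adjusted p between 0.0536 and 0.148 for Slc37a4 and between 0.0603 and 0.096 for Fbp1. They were also lost when only those groups were fitted (adjusted p = 0.136 for Slc37a4 and 0.0712 for Fbp1).

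Pck1 and Pc act at the entry of gluconeogenesis. Pck1 encodes the cytosolic phosphoenolpyruvate carboxykinase, whose transcription glucagon raises and insulin lowers. Its signal after 48 h was 699.7, 730.6, 877, 877.4 and 561.8 in vehicle, 648, 716.7, 545.2, 794.4 and 647.1 at 1 µM, and 372.2, 459.5, 459.4, 767.1 and 471.1 at 100 µM. After 24 h the Pck1 signal was 1023.8, 1597.1, 1210.2, 1086 and 1175 in vehicle, 1314.4, 998.6, 2051, 1196.1 and 843.7 at 1 µM, and 681.6, 782.7, 760.5, 794.2 and 633.5 at 100 µM. At 24 h the 100 µM arrays lay below all others, at 48 h 100 µM replicate 4 lay within the vehicle range, and the 1 µM and vehicle arrays overlapped at both times. Pck1 fell 1.51-fold at 100 µM after 48 h (log2 fold change -0.59, SE 0.19, adjusted p = 0.0251) and 1.65-fold after 24 h (-0.73, SE 0.19, adjusted p = 0.00458). The 48 h call was lost when only those groups were fitted (adjusted p = 0.0557) and without any 1 of 100 µM replicates 1, 2 and 3 or vehicle replicates 3 and 4 (adjusted p between 0.0506 and 0.0884). At 1 µM the log2 fold change of Pck1 was -0.15 (95% interval -0.54 to 0.23, adjusted p = 0.825) after 48 h and 0.02 (95% interval -0.36 to 0.4, adjusted p = 0.976) after 24 h.

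Pc encodes pyruvate carboxylase, the mitochondrial enzyme that makes oxaloacetate from pyruvate. After 48 h its signal was 1219.6 ± 233 in vehicle, 1131.3 ± 141.1 at 1 µM and 992.4 ± 159.5 at 100 µM, and after 24 h it was 2036.7 ± 441.5 in vehicle, 1429.6 ± 107.7 at 1 µM and 1099 ± 114.6 at 100 µM (SD, n = 5 each). At 48 h the 3 ranges overlapped, and at 24 h the 100 µM arrays lay below all others. Pc fell 1.82-fold at 100 µM after 24 h (log2 fold change -0.87, SE 0.14, adjusted p = 1.68e-05), and after 48 h its log2 fold change was -0.29 (SE 0.14, adjusted p = 0.165). At 1 µM the log2 fold change was -0.1 (adjusted p = 0.857) after 48 h and -0.48 (adjusted p = 0.0403) after 24 h. The 24 h call at 1 µM was lost when only those groups were fitted (adjusted p = 0.0755) and without any 1 of 1 µM replicates 2, 3, 4 and 5 or vehicle replicates 1, 2, 4 and 5 (adjusted p between 0.0584 and 0.137).

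Ppargc1a encodes PGC-1α, a coactivator that glucagon induces and that raises gluconeogenic gene expression. Its main probe set read 1042.4, 1024.8, 884.9, 937 and 707.5 in vehicle after 48 h, 714.1, 794.9, 949.3, 878.5 and 1026.5 at 1 µM, and 639.1, 708.5, 658.8, 769.9 and 569 at 100 µM. The 24 h signals of Ppargc1a were 772.8, 690.7, 836, 743.8 and 674.2 in vehicle, 898.2, 779.3, 485.5, 685.5 and 769.4 at 1 µM, and 653.2, 672.1, 518.6, 609.6 and 823.4 at 100 µM. At 48 h vehicle replicate 5 lay within the 100 µM range, and at 24 h the 3 doses overlapped. By this probe set Ppargc1a fell 1.37-fold at 100 µM after 48 h (log2 fold change -0.45, SE 0.14, adjusted p = 0.0268), and after 24 h its log2 fold change was -0.19 (SE 0.14, adjusted p = 0.406). The 48 h call was lost with each array centred on its median (adjusted p = 0.0553) and without any 1 of 100 µM replicates 1 and 5 or vehicle replicates 1, 2 and 4 (adjusted p between 0.0527 and 0.0806). At 1 µM the log2 fold change was -0.07 (adjusted p = 0.909) after 48 h and -0.06 (adjusted p = 0.881) after 24 h.

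The second probe set of Ppargc1a was called lower at 100 µM at both times. After 48 h it read 316.4 ± 51.2 in vehicle, 325.7 ± 46.5 at 1 µM and 117.5 ± 83.1 at 100 µM, and after 24 h 231.5 ± 28.9 in vehicle, 243 ± 26.4 at 1 µM and 90 ± 63 at 100 µM (SD, n = 5 each). Its log2 fold change at 100 µM was -1.7 (SE 0.43, adjusted p = 0.00454) after 48 h and -1.77 (SE 0.43, adjusted p = 0.00261) after 24 h. At 1 µM it was 0.04 (adjusted p = 0.984) after 48 h and 0.07 (adjusted p = 0.962) after 24 h. The third probe set read 3.2 to 85.7 over all arrays and was called in none of the comparisons. At 100 µM and 48 h the first and second probe sets were both called lower, and at 24 h the second was called and the first was not. The difference between the probe sets was not tested.

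**Figure D4:**
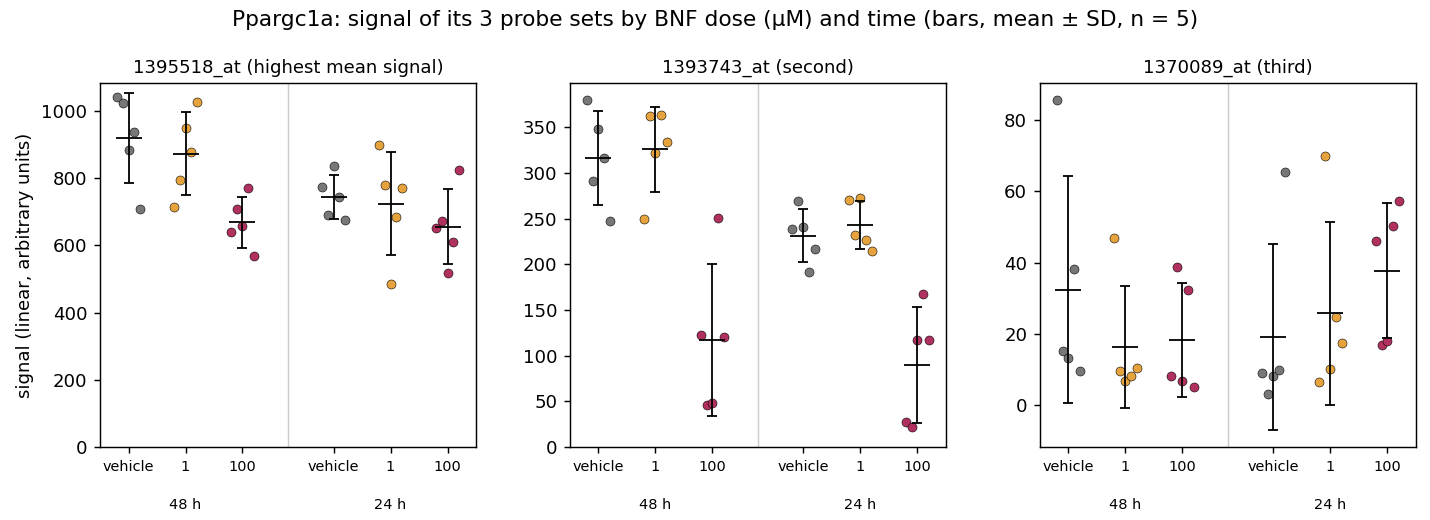
Signal (linear, arbitrary units) of the 3 probe sets of Ppargc1a on each array, by BNF dose in µM and time, with 48 h on the left and 24 h on the right of each panel. Points are arrays and bars the mean ± SD of 5. In the second probe set the 100 µM means are 117.5 at 48 h and 90 at 24 h, against vehicle means of 316.4 and 231.5.

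The doses were also compared directly. After 48 h, 7 of the 10 genes (Gckr, Pfkfb1, Slc2a2, Gys2, Pygl, Slc37a4 and Fbp1) were called lower at 100 µM than at 1 µM, against 7.39% of all genes, with median log2 fold changes of -0.67 for the 10 genes and -0.02 for all. After 24 h, 7 genes (Pfkfb1, Slc2a2, Gys2, Pygl, Slc37a4, Fbp1 and Pck1) were called lower at 100 µM than at 1 µM, against 4.57% of all genes, with medians of -0.58 and 0. Called at both times were 6 genes, against 3.35% of all genes. All 100 µM arrays lay below all 1 µM arrays for 7 genes after 48 h (5.85% of all genes) and for 9 after 24 h (4.27% of all genes). Gckr differed between the doses by 5.58-fold after 48 h (log2 fold change -2.48, SE 0.32, adjusted p = 1.03e-06). At 24 h its difference of -0.73 (SE 0.32) was not called (adjusted p = 0.198), although it was when only those groups were fitted (adjusted p = 0.00206). Pfkfb1 was 3.3-fold lower at 100 µM than at 1 µM after 48 h (adjusted p = 7.13e-12) and 2.86-fold lower after 24 h (adjusted p = 3.7e-10). Slc37a4 was 2.18-fold lower after 48 h (adjusted p = 3.81e-08) and 1.75-fold lower after 24 h (adjusted p = 2.59e-05).

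Gys2 was 1.87-fold lower at 100 µM than at 1 µM after 48 h (adjusted p = 1.38e-06) and 1.4-fold lower after 24 h (adjusted p = 0.00724), and Fbp1 1.91-fold (adjusted p = 1.68e-09) and 1.59-fold (adjusted p = 2.83e-06). With each array centred on its median, the 24 h calls of Gys2 (adjusted p = 0.0631), Slc2a2 (0.282) and Pygl (0.189) and the 48 h call of Pygl (0.201) were lost. Pygl differed by -0.31 log2 units after 48 h (adjusted p = 0.013) and by -0.28 after 24 h (adjusted p = 0.0413), and its 24 h call was also lost without any 1 of 100 µM replicates 2, 3, 4 and 5 or 1 µM replicates 1 and 2 (adjusted p between 0.0532 and 0.154). For Pck1 the difference was -0.44 (adjusted p = 0.13) after 48 h, called without 100 µM replicate 4 (-0.6, adjusted p = 0.0239), and -0.75 (adjusted p = 0.00903) after 24 h. Pc differed by -0.2 (adjusted p = 0.423) after 48 h and by -0.38 (adjusted p = 0.0941) after 24 h, with the 24 h difference called when only those groups were fitted (adjusted p = 0.024). By its main probe set Ppargc1a differed by -0.38 (adjusted p = 0.0821) after 48 h, called without 1 µM replicate 1 (adjusted p = 0.0469), and by -0.13 (adjusted p = 0.728) after 24 h. Its second probe set was called lower at 100 µM than at 1 µM at both times in limma. The differences were -1.75 (SE 0.43, adjusted p = 0.00485) after 48 h and -1.85 (SE 0.43, adjusted p = 0.00489) after 24 h.

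Several of the genes also declined with time in vehicle alone. Between 48 and 24 h of vehicle, 6 of the 10 genes were called lower at 48 h, against 8.6% of all genes, with median log2 fold changes of -0.4 for the 10 genes and 0 for all. The vehicle arrays of 48 h lay wholly below those of 24 h for 4 genes, against 6.03% of all genes. The largest of these differences was in Slc37a4, at 12183.8 ± 1670.1 after 48 h and 21584.7 ± 1940.3 after 24 h (SD, n = 5 each; log2 fold change -0.83, adjusted p = 5.5e-06). Pc was 1.66-fold lower (adjusted p = 0.000231), Pck1 1.63-fold (adjusted p = 0.00771), Pfkfb1 1.36-fold (adjusted p = 0.0112), Fbp1 1.32-fold (adjusted p = 0.000856) and Pygl 1.26-fold (adjusted p = 0.00661). Leaving out vehicle 48 h replicate 2 ended the Pfkfb1 call (adjusted p = 0.0587), and the Pygl call was lost when only those groups were fitted (adjusted p = 0.0569). Gys2 had no detectable difference between the times, with a log2 fold change of 0 (95% interval -0.24 to 0.24, adjusted p = 0.999). The log2 fold change was -0.39 for Gckr (adjusted p = 0.488), -0.08 for Slc2a2 (adjusted p = 0.316) and 0.3 for Ppargc1a (adjusted p = 0.177). Summed Kupffer cell markers were 7640 to 9060 in vehicle at 48 h and 9860 to 10300 at 24 h. Of the 11 hepatocyte markers, 5 (Apob, Ambp, Fgb, Cps1 and Tat; 45.5%, against 8.6% of all genes) were called lower at 48 h and 0 higher, with a median log2 fold change of -0.15. Summed hepatocyte markers were 499000 to 593000 at 48 h and 571000 to 643000 at 24 h. The part of these markers in the differences was not tested.

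No gene of the 10 had an effect of BNF that differed between the times after adjustment, in limma. For 100 µM the count was 0 of 10, against 0.788% of all genes in either direction, with 4 of the 10 at an unadjusted p under 0.05 (11.6% of all genes). For 1 µM it was 0 of 10, against 0.0914% of all genes, with 3 of the 10 at an unadjusted p under 0.05 (9.28% of all genes). The largest difference was in Gckr, whose 100 µM effect was lower by 1.69 log2 units at 48 h than at 24 h (SE 0.45, adjusted p = 0.0689). It was called with genes below the median signal left out (adjusted p = 0.0332) and without 100 µM 48 h replicate 2 (0.0176) or 4 (0.0123) or vehicle 48 h replicate 2 (0.0492). In the other direction, Pc had a 100 µM effect 0.57 log2 units higher at 48 h than at 24 h (SE 0.2, adjusted p = 0.19), called without vehicle 24 h replicate 3 (0.71, adjusted p = 0.047). Pygl had effects 0.38 higher at 48 h for 100 µM (adjusted p = 0.155) and 0.41 higher for 1 µM (adjusted p = 0.232), both called without vehicle 48 h replicate 5 (0.5 with adjusted p = 0.00221, and 0.53 with adjusted p = 0.00782).

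When the 6 groups were ordered by level, the lowest was a 100 µM group for all 10 genes. In Gckr, Pfkfb1, Slc2a2, Slc37a4, Fbp1, Pck1 and Pc the lowest group was 100 µM at 48 h, and in Gys2, Pygl and Ppargc1a it was 100 µM at 24 h. Next above, 100 µM at 24 h differed from 100 µM at 48 h beyond the spread in Gckr (2.08 log2 units, adjusted p = 1.25e-05), Slc37a4 (1.11, adjusted p = 2.31e-08), Pfkfb1 (0.88, adjusted p = 2.58e-06), Fbp1 (0.35, adjusted p = 0.00316) and Slc2a2 (0.21, adjusted p = 0.0026). Those 2 groups did not differ beyond their spread in Pc (0.16, adjusted p = 0.531), Gys2 (0.19, adjusted p = 0.328), Pygl (0.05, adjusted p = 0.786) or Ppargc1a (0.04, adjusted p = 0.911). In Pck1 the group next above was 1 µM at 48 h, which did not differ from it beyond the spread (0.44, adjusted p = 0.13). Vehicle at 24 h was the highest group in Gckr, Pfkfb1, Slc2a2, Pygl, Slc37a4, Fbp1 and Pc. In Gys2 vehicle at 48 h and vehicle at 24 h had the same mean log2 signal (difference 0, adjusted p = 0.999), and 1 µM at 48 h, the next below, did not differ from vehicle at 48 h beyond the spread (0.21, adjusted p = 0.531). In Pck1 the highest group was 1 µM at 24 h, within 0.02 log2 units of vehicle at 24 h (adjusted p = 0.976), and in Ppargc1a it was vehicle at 48 h, within 0.07 of 1 µM at 48 h (adjusted p = 0.909).

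The median profile of the 10 genes, each centred on its own mean over the 6 groups, was 0.27 log2 units in vehicle, 0.04 at 1 µM and -0.62 at 100 µM after 48 h, and 0.62 in vehicle, 0.15 at 1 µM and -0.25 at 100 µM after 24 h. Fbp1 (root-mean-square difference 0.187), Pc (0.196) and Slc2a2 (0.2) lay closest to this median, and Gckr (0.789) and Pfkfb1 (0.609) farthest from it, with the widest swings. Among all other genes with a signal above the median, those with the most similar profile over the 6 group means were Pzp (0.061), Polg2 (0.065), Zfp189 (0.071), Adk (0.075) and Id4 (0.077).

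Within groups, some single wells were low or high for several of the genes at once, and the most extreme are named here. Such ranks were not counted over all genes. Wells low or high for these genes and wells low or high in general therefore cannot be told apart. At 48 h, 100 µM replicate 1 was the lowest of its group for 7 of the 10 genes, 1 µM replicate 1 for 6 and vehicle replicate 2 for 6. Also at 48 h, 1 µM replicate 2 was the highest of its group for 6 genes and vehicle replicate 5 for 6. At 24 h, 1 µM replicate 4 was the lowest of its group for 7 genes and 1 µM replicate 1 the highest for 6.

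The other genes of the pathway are given by list, to be read against the share of all genes called. At 100 µM this share was 8.79% higher and 8.62% lower after 48 h, and 10.7% higher and 10.4% lower after 24 h. At 1 µM it was 0.288% higher and 0.521% lower after 48 h, and 1.91% higher and 2.4% lower after 24 h. Of 21 measured glycogen enzymes and regulators besides the members, 3 were called higher (14.3%) and 3 lower (14.3%) at 100 µM after 48 h, and 4 higher (19%) and 5 lower (23.8%) after 24 h. Their median log2 fold changes were 0.03 after 48 h and -0.13 after 24 h. At 1 µM, 1 was called higher (Pygb) and 0 lower after 48 h, and 0 higher and 1 lower (Stbd1) after 24 h. Ppp1r3b, the liver subunit that brings protein phosphatase to glycogen, fell 2.35-fold at 100 µM after 48 h (adjusted p = 3.67e-05) and 1.87-fold after 24 h (adjusted p = 0.00134). Gbe1, the glycogen branching enzyme, had log2 fold changes of -0.32 (adjusted p = 0.00261) after 48 h and -0.26 (adjusted p = 0.0128) after 24 h, with the 24 h call lost without 100 µM replicate 4 (adjusted p = 0.0509). Gsk3b, a kinase that inactivates glycogen synthase, rose 1.44-fold at 100 µM after 48 h (adjusted p = 0.00172) and 1.36-fold after 24 h (adjusted p = 0.00737), with the 24 h call lost when each array was centred on its median (adjusted p = 0.0653). Pygb, the brain form of phosphorylase, rose 1.27-fold at 100 µM (adjusted p = 0.00277) and 1.32-fold at 1 µM (adjusted p = 0.0114) after 48 h. After 24 h its log2 fold change at 100 µM was 0.24 (adjusted p = 0.0398), a call lost under centring, with array weights, when only those groups were fitted, and without any 1 of 100 µM replicates 2, 3, 4 and 5 or vehicle replicates 1, 3 and 4 (adjusted p between 0.0541 and 0.177). The 1 µM call of Pygb was lost with each array centred on its median (adjusted p = 0.0802) and without vehicle replicate 1 (adjusted p = 0.0506).

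Smaller changes were found in the enzymes that prepare glucose for storage. Ugp2, which makes UDP-glucose, fell 1.32-fold at 100 µM after 24 h (adjusted p = 0.00257), and after 48 h its log2 fold change was -0.21 (adjusted p = 0.147), called without vehicle replicate 2 (adjusted p = 0.0491). Pgm1, which interconverts the glucose phosphates, fell 1.35-fold at 100 µM after 24 h (adjusted p = 1.21e-05), and after 48 h its log2 fold change was -0.18 (adjusted p = 0.063), called with genes below the median signal left out (adjusted p = 0.0362), with quantile normalization (0.0376) and without vehicle replicate 2 (0.0137) or 3 (0.0377). Gyg1, the glycogenin that primes the particle, had log2 fold changes at 100 µM of 0.12 (adjusted p = 0.0218) after 48 h and 0.18 (adjusted p = 0.00046) after 24 h, and both calls were lost with each array centred on its median (adjusted p = 0.146 after 48 h and 0.252 after 24 h). The 48 h call of Gyg1 was also lost when only those groups were fitted (adjusted p = 0.0788) and without any 1 of 100 µM replicates 2, 4 and 5 or vehicle replicates 3 and 4 (adjusted p between 0.0501 and 0.0635). Stbd1, which binds glycogen, had log2 fold changes at 100 µM of -0.24 (adjusted p = 0.00883) after 48 h and -0.28 (adjusted p = 0.00172) after 24 h, with the 48 h call lost under centring (adjusted p = 0.118) and when only those groups were fitted (0.0702). At 1 µM and 24 h it was -0.25 (adjusted p = 0.0195), a call lost without any 1 of 1 µM replicates 3 and 4 or vehicle replicate 4 (adjusted p between 0.0537 and 0.0572). The phosphorylase kinase subunits Phka2 (0.48 and 0.38) and Phkb (0.13 and -0.03) had log2 fold changes at 100 µM after 48 and 24 h that were not called (adjusted p between 0.0871 and 0.889). That of Phka2 after 48 h was called without 100 µM replicate 3 (0.62, adjusted p = 0.027).

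Of 21 measured genes of glycolysis and fructose entry, 0 were called higher and 4 lower (19%, against 8.62% of all genes) at 100 µM after 48 h, and 0 higher and 7 lower (33.3%, against 10.4%) after 24 h. The list had median log2 fold changes of -0.05 after 48 h and -0.06 after 24 h. At 1 µM, 0 were called after 48 h and 3 were called lower after 24 h (Pfkfb3, Pklr and Khk). Pklr, the liver pyruvate kinase, fell 2.06-fold at 100 µM after 48 h (adjusted p = 2.98e-09) and 2.52-fold after 24 h (adjusted p = 2.44e-11), and at 1 µM 1.57-fold after 24 h (adjusted p = 0.00015). Khk, which phosphorylates fructose, fell 1.61-fold at 100 µM after 48 h (adjusted p = 6.48e-09) and 1.85-fold after 24 h (adjusted p = 4.21e-11). Its log2 fold change at 1 µM and 48 h was -0.25 (adjusted p = 0.0958), called with array weights (0.0474), under centring (0.023) and without vehicle replicate 2 (0.0469). Pfkl, the liver phosphofructokinase, had log2 fold changes of -0.21 (adjusted p = 0.454) at 100 µM after 48 h and -0.06 (adjusted p = 0.863) after 24 h.

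Of 17 measured genes of gluconeogenesis and its substrate supply, 1 was called higher and 7 lower (41.2%, against 8.62% of all genes) at 100 µM after 48 h, and 1 higher and 6 lower (35.3%, against 10.4%) after 24 h. Their median log2 fold changes were -0.18 after 48 h and -0.23 after 24 h. The one called higher at both times was Pck2, the mitochondrial counterpart of Pck1, which rose 1.32-fold after 48 h (adjusted p = 0.000189) and 1.34-fold after 24 h (adjusted p = 7.46e-05), while Pck1 fell. At 1 µM, 0 were called higher and 1 lower (Gpd1) after 48 h, and 0 higher and 3 lower (Mdh1, Gpt and Gpd1) after 24 h. Gpd1, which links glycerol to the pathway, fell 1.72-fold at 100 µM (adjusted p = 6.82e-12) and 1.29-fold at 1 µM (adjusted p = 0.00043) after 48 h, and 1.75-fold (adjusted p = 4.72e-12) and 1.58-fold (adjusted p = 6.21e-09) after 24 h. Mdh1, the cytosolic malate dehydrogenase, fell 1.35-fold at 100 µM after 48 h (adjusted p = 1.31e-05) and 1.48-fold after 24 h (adjusted p = 1.5e-07). Tat, the glucocorticoid-induced tyrosine aminotransferase, fell 1.65-fold at 100 µM after 48 h (adjusted p = 1.46e-10) and 1.41-fold after 24 h (adjusted p = 2.52e-07). Of 10 measured genes of pyruvate dehydrogenase and its regulators, 0 were called higher and 4 lower (40%, against 8.62% of all genes) at 100 µM after 48 h (Pdhb, Pdk1, Pdk2 and Pdk4), and 1 higher (Pdp1) and 4 lower (40%, against 10.4%) after 24 h (Pdhb, Pdk1, Pdk2 and Pdk4). The complex and its regulators had median log2 fold changes of -0.08 after 48 h and -0.02 after 24 h. Pdk4, a fasting-induced kinase that shuts the complex off, fell 2.05-fold at 100 µM (adjusted p = 1.25e-11) and 1.46-fold at 1 µM (adjusted p = 0.00013) after 48 h, and 1.66-fold at 100 µM after 24 h (adjusted p = 2.06e-08). Its relative Pdk2 fell 1.52-fold after 48 h (adjusted p = 6.06e-08) and 1.56-fold after 24 h (adjusted p = 1.59e-08) at 100 µM. Pdhb, a subunit of the complex itself, fell 1.34-fold after 48 h (adjusted p = 7.36e-09) and 1.33-fold after 24 h (adjusted p = 1.47e-08) at 100 µM.

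Of 10 other measured glucose carriers, 0 were called higher and 3 lower at 100 µM after 48 h (Slc2a3, Slc2a5 and Slc2a9; 30%, against 8.62% of all genes), and 1 higher (Slc2a1) and 3 lower (Slc2a4, Slc2a5 and Slc2a9; 30%, against 10.4%) after 24 h. Median log2 fold changes of these carriers were -0.17 after 48 h and -0.07 after 24 h. At 1 µM 0 of the 10 were called at either time in limma. Under alternative settings 2 of them were called lower at 1 µM and 24 h, Slc2a5 under centring (adjusted p = 0.0278), when only those groups were fitted (0.0437) and with quantile normalization (0.0497), and Slc2a9 under centring (0.0179), with low genes left out (0.0405) and when only those groups were fitted (0.0331). Slc2a5, a fructose carrier, fell 1.44-fold at 100 µM after 48 h (adjusted p = 0.0101) and 1.51-fold after 24 h (adjusted p = 0.00335), with the 48 h call lost when only those groups were fitted (adjusted p = 0.0525) and without 100 µM replicate 3 (0.0512). Slc2a9, a urate carrier, fell 1.46-fold (adjusted p = 0.0085) after 48 h and 1.5-fold (adjusted p = 0.00394) after 24 h. The carriers Slc2a6 and Slc2a8 were not called in any comparison with vehicle (adjusted p between 0.507 and 0.973). Slc2a1, the carrier GLUT1, had log2 fold changes at 100 µM of 0.31 (adjusted p = 0.0564) after 48 h and 0.34 (adjusted p = 0.0317) after 24 h. The 24 h call was lost with each array centred on its median (0.28, adjusted p = 0.146) and without any 1 of 100 µM replicates 2, 4 and 5 or vehicle replicates 3 and 5 (adjusted p between 0.0528 and 0.107). Its 48 h value was called with array weights (adjusted p = 0.00824), with genes below the median signal left out (0.032), and without 100 µM replicate 1 (0.014) or vehicle replicate 5 (0.00156).

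Of 24 measured hormone receptors and signalling genes, 1 was called higher (Grb10) and 7 lower (29.2%) at 100 µM at each time, against 8.62% of all genes lower after 48 h and 10.4% after 24 h, and 0 at 1 µM at either time. Their median log2 fold changes at 100 µM were -0.11 after 48 h and -0.13 after 24 h. Gcgr, the glucagon receptor, fell 2.55-fold at 100 µM after 24 h (adjusted p = 0.000765), and after 48 h its log2 fold change was -0.71 (SE 0.29, adjusted p = 0.0992), called without 100 µM replicate 3 (-0.87, adjusted p = 0.0469). Insr, the insulin receptor, fell 1.37-fold at 100 µM after 48 h (adjusted p = 0.00545), and after 24 h its log2 fold change was -0.19 (adjusted p = 0.286). Nr3c1, the glucocorticoid receptor, fell 1.3-fold at 100 µM after 48 h (adjusted p = 0.00029) and 1.29-fold after 24 h (adjusted p = 0.000256). Grb14, an inhibitor of the insulin receptor, had log2 fold changes at 100 µM of -0.22 (adjusted p = 0.00384, lost under centring at 0.125) after 48 h and -0.35 (adjusted p = 1e-05) after 24 h. Adra1b, an adrenergic receptor that mobilises glycogen, fell 1.7-fold after 48 h (adjusted p = 0.00102) and 1.49-fold after 24 h (adjusted p = 0.0114), with the 24 h call lost without 100 µM replicate 5 (adjusted p = 0.0555). Prkar2a, a regulatory subunit of protein kinase A, fell 1.19-fold after 48 h (adjusted p = 0.0288) and 1.4-fold after 24 h (adjusted p = 4.45e-05). Its 48 h call was lost under centring (adjusted p = 0.152), when only those groups were fitted (0.0727) and without any 1 of 100 µM replicates 2 and 4 or vehicle replicates 1, 3 and 5 (adjusted p between 0.0616 and 0.116). Prkaa1, a catalytic subunit of AMP-activated kinase, fell 1.19-fold after 48 h (adjusted p = 0.0342) and 1.38-fold after 24 h (adjusted p = 9.7e-05). Its 48 h call was lost under centring (adjusted p = 0.2) and without any 1 of 100 µM replicates 1, 2 and 4 or vehicle replicates 1, 3, 4 and 5 (adjusted p between 0.0579 and 0.113). The insulin receptor substrates Irs1 (-0.35 after 48 h, adjusted p = 0.322, and -0.2 after 24 h, adjusted p = 0.617) and Irs2 (-0.12, adjusted p = 0.353, and -0.1, adjusted p = 0.45) were not called at 100 µM. Neither Pdpk1 nor Prkab1 was called at 1 µM and 48 h (adjusted p = 0.445 and 0.316). Igfbp1, a target of insulin signalling, had log2 fold changes of -0.07 (SE 0.08, adjusted p = 0.662) after 48 h and 0 (SE 0.08, adjusted p = 0.993) after 24 h at 100 µM.

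Of 20 measured transcription regulators of glucose genes, 1 was called higher (Cebpa) and 3 lower (Hnf4a, Mlxipl and Srebf1; 15%, against 8.62% of all genes) at 100 µM after 48 h, and 1 higher (Creb1) and 4 lower (Foxo3, Hnf4a, Srebf1 and Onecut1; 20%, against 10.4%) after 24 h. Their median log2 fold changes were -0.05 after 48 h and -0.14 after 24 h. At 1 µM 0 were called after 48 h and 2 lower (Hnf4a and Srebf1) after 24 h. The 1 µM call of Hnf4a was lost with each array centred on its median (adjusted p = 0.066) and without any 1 of 1 µM replicates 2, 4 and 5 or vehicle replicates 1, 2, 4 and 5 (adjusted p between 0.0551 and 0.0937). Srebf1, which mediates insulin's effect on lipid and glucose genes, fell 1.69-fold at 100 µM after 48 h (adjusted p = 3.57e-07) and 2.35-fold after 24 h (adjusted p = 2.59e-11). Hnf4a, a nuclear receptor of hepatocyte identity, fell 1.17-fold after 48 h (adjusted p = 0.00829) and 1.31-fold after 24 h (adjusted p = 1.22e-05) at 100 µM, and the 48 h call was lost with each array centred on its median (adjusted p = 0.173). Mlxipl, the glucose-sensing factor ChREBP, fell 1.44-fold at 100 µM after 48 h (adjusted p = 0.0121), lost without 100 µM replicate 3 (adjusted p = 0.0523), and its log2 fold change after 24 h was -0.13 (adjusted p = 0.645). Cebpa, a hepatocyte transcription factor, rose 1.28-fold at 100 µM after 48 h (adjusted p = 0.000113). Foxo1, which insulin inactivates, had log2 fold changes at 100 µM of -0.23 (adjusted p = 0.661) after 48 h and -0.48 (adjusted p = 0.241) after 24 h, and Nr0b2, a repressor, 0.18 (adjusted p = 0.903) and -0.89 (adjusted p = 0.368). Ppargc1b, the relative of Ppargc1a, had log2 fold changes of -0.14 (adjusted p = 0.515) after 48 h and -0.1 (adjusted p = 0.624) after 24 h.

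**Figure D5:**
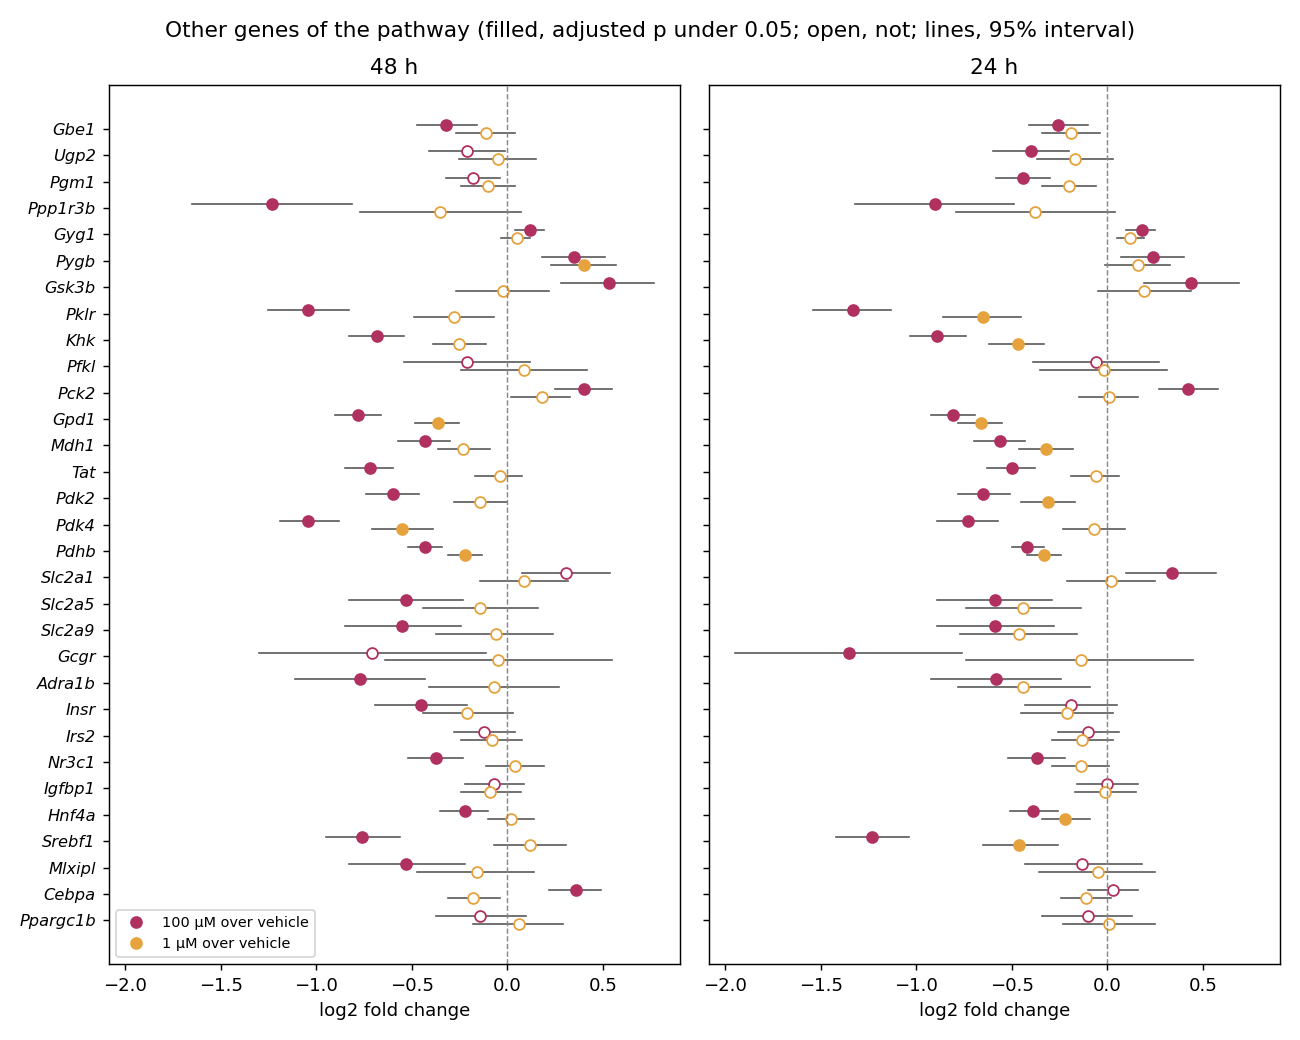
Log2 fold changes against vehicle (horizontal axis) of named genes of the 7 pathway lists at 48 h (left) and 24 h (right), with 100 µM in red and 1 µM in orange. Points are estimates of the fit with their 95% intervals, and filled points passed an adjusted p of 0.05. Pklr, Gpd1, Pdk4 and Srebf1 lie well below 0 at 100 µM at both times, and Pck2 lies above it at 0.4 at 48 h and 0.42 at 24 h.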

How the data were processed

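Affymetrix rat arrays of 30 cultures were analysed, 5 in each of 6 groups. The deposited values are linear MAS5 intensity values per probe set, per the submitters' processing notes, with a trimmed mean of 1501 on every array, so they carry a scaling of each array to 1 level. Detection calls were not used here, and the number of arrays limits the precision.

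Of 31099 probe sets, 20826 had 1 gene symbol, 436 had several, 9780 had none and 57 were controls. The brightest probe set by mean log2 value stood for a gene, giving 14217 genes. Log2 intensities, with no constant added, were fitted with limma 3.58.1 (R 4.3.3) in one model of the 6 groups (24 residual degrees of freedom, eBayes with trend), with Benjamini-Hochberg adjustment over all genes in each of 9 comparisons. A gene was called at an adjusted p under 0.05. No 2 arrays held identical values. The fit was run on simulated log2 values of 14217 genes for 100 µM against vehicle at 24 h, with 200 genes changed and independent normal noise. It recovered 48.8% of changes of 0.5 and 68.6% of changes of 1 log2 unit, with 5.3% false calls. In the data 3000 genes were called in this comparison. The adjustment depends on how many genes change, so these shares do not give the recovery in the data.

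The members and lists were chosen with earlier results of these data known. Named are all members with their other probe sets, key enzymes and regulators of 7 pathway lists, the 2 genes with the smallest adjusted p in each list and comparison with vehicle, Cyp1a1, and the 5 genes of above-median signal nearest to the members' median profile by root-mean-square difference. Alternatives were fits of the compared groups alone, centring, array weights, quantile normalization, an added constant, a filter on low signals, the second probe set of Ppargc1a and leaving out each array, and, added after seeing the data, the third probe set of Ppargc1a and a block for each of 5 sets of arrays with consecutive serial numbers, 1 array of each group in a set. Promoter sequences are from RefSeq, build GRCr8.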

Additional observations from a re-analysis of the deposited data

Results flagged for a closer look

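Of 60 groups of 5 arrays tested (10 genes in 6 groups), 3 held an array far from the others, by the gap to the nearest array over the range of the group's log2 signals (critical value 0.71). Chance gives about 1 such group in 20. Gys2 at 1 µM and 48 h had replicate 1 at 3550.1, with the nearest array at 4697.5 (0.737). Fbp1 at 1 µM and 48 h had replicate 2 at 9556.2, with the nearest at 8149.2 (0.749). Fbp1 in vehicle at 48 h had replicate 2 at 8926.3, with the nearest at 10667.8 (0.721).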

How the results depend on the processing

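Of 1730 values of the 10 genes under alternative settings, 1642 kept their side of the threshold, 67 lost the call and 21 gained one. Among values that were not called, 40 changed sign, and none of the called values did. Of the 10 genes, 9 were called lower at 100 µM and 24 h whichever array was left out (8 to 10 over all alternatives), and 6 to 8 at 100 µM and 48 h. At 1 µM and 24 h, 3 to 6 were called when 1 array was left out, with 3 without 1 µM replicate 3 or vehicle replicate 4 or 5. At 1 µM and 48 h, 0 were called in a fit of those groups alone and 1 to 3 when 1 array was left out. Between 100 and 1 µM at 24 h, 4 were called with each array centred on its median. For the effect of 100 µM between the times, 1 was called with genes below the median signal left out, and 0 to 1 when 1 array was left out. For 1 µM this was 0 to 1, with 1 without vehicle 48 h replicate 5.

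Over all genes, centring gave 396 calls at 1 µM and 24 h (51 higher), where the model as described gave 612 (271 higher), and leaving out 1 µM replicate 3 gave 406. At 1 µM and 48 h there were 115 calls (41 higher), with 66 under centring (8 higher), 30 in those groups alone and 46 to 153 when 1 array was left out. At 100 µM and 24 h, 1523 of 3000 calls were higher, and 655 of 2141 under centring. Between 100 and 1 µM, centring gave 612 calls at 24 h in place of 1097, and at 48 h 1612 of 2120 calls were higher in place of 934 of 1984. The effect of 100 µM differed between the times for 112 genes, 47 under centring and 174 with low genes left out. For 1 µM there were 13, with 0 under centring, 5 in those groups alone, 25 with array weights, 23 with quantile normalization and 2 to 22 when 1 array was left out. Of the pathway lists at 100 µM, centring gave 5 called glycogen genes in place of 9 at 24 h and 4 called hormone and signalling genes in place of 8 at 48 h. The cause was not tested. The labels state no pairing of replicates, but the serial numbers in the titles run in 5 sets with 1 array of each group. With the set as a replicate block, chosen after seeing the data, the members called numbered 8 at 100 µM and 3 at 1 µM after 48 h, and 9 at 100 µM and 6 at 1 µM after 24 h, as without it, and no call of the 10 genes changed. Of the other pathway genes, Slc2a1 at 100 µM and 48 h (adjusted p = 0.0383) and Slc2a9 at 1 µM and 24 h (adjusted p = 0.0466) gained a call with it. Arrays of a set did not deviate together from their group means (correlation over genes -0.038 to 0.111, median 0.006, with 1 of 75 pairs over 0.1).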
